A study of Rattus norvegicus with 9 samples.

Results

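The VPS10 receptors are a family of 5 membrane proteins, encoded in the rat by Sorcs1, Sorcs2, Sorcs3, Sort1 and Sorl1, and all 5 were chosen here by gene symbol from a table of 37991 genes. All 5 passed the filter on low counts. Sorcs3 was picked because earlier results on the same libraries had shown it higher after both drugs, so its values against Control are given as a description with no test, while the other 4 entered as the rest of the family and were tested. RNA was sequenced from the medial prefrontal cortex (mPFC) of Wistar Kyoto rats, a strain often studied for its depression-like behaviour, in 9 libraries, 3 per group, all labelled day 15. K4 rats received K4, a compound known only by this code, intravenously through a cannula for 7 days, followed by 7 days of withdrawal. Ketamine rats received ketamine, an NMDA receptor antagonist and rapid-acting antidepressant, subcutaneously on the same schedule. Control rats were untreated, with no vehicle or cannula stated, so drug, route and handling cannot be told apart. No dose is stated, and the labels do not say whether the libraries are separate animals, so p-values measure only the spread between these libraries.

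VPS10 receptors span the membrane once and carry cargo between the cell surface, endosomes and the trans-Golgi network. Their luminal VPS10 domain binds ligands such as neurotrophin precursors, and their short cytoplasmic tails bind adaptors and the retromer complex, which returns cargo from endosomes. Sort1 encodes sortilin, a receptor for neurotensin and progranulin and, with the p75 neurotrophin receptor, for pro-neurotrophins. Sorl1 encodes SorLA, which is studied for its retromer-dependent sorting of amyloid precursor protein. SorCS1 sorts synaptic receptors in rodent neurons, SorCS2 binds proBDNF together with p75, and SorCS3 lies in the postsynaptic density, binds PICK1 and is needed for long-term depression in mouse hippocampus.

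Sorcs3 and Sorcs1 are neighbouring protein-coding genes on chromosome 1 (RefSeq, GRCr8), and Sorcs2, Sort1 and Sorl1 lie on chromosomes 14, 2 and 8. Their NCBI gene IDs in the deposited table are 294043 for Sorcs3, 309533 for Sorcs1, 305438 for Sorcs2, 83576 for Sort1 and 300652 for Sorl1. The 250 bases before the annotated start of the 2 neighbours are shown because their levels differed in pattern between the groups, with each CpG in capitals and each written along its gene's own strand. The Sorcs3 window is chr1:257040192-257040441 on the plus strand and the Sorcs1 window is chr1:259535487-259535736 on the minus strand.
Sorcs3: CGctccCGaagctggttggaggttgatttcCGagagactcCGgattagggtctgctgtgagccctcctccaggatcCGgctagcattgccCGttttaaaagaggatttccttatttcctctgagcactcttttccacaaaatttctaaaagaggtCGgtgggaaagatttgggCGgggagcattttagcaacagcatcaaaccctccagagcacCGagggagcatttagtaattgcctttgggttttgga
Sorcs1: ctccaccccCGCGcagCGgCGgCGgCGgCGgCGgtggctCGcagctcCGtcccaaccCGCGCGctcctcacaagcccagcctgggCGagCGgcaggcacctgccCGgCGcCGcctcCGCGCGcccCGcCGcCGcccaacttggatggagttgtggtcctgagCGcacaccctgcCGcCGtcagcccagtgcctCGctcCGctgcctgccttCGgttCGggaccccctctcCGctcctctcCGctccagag
The Sorcs3 window held 9 CpG and 49.6% G or C, against medians of 5 CpG and 51.2% over 33469 rat windows of the same length. The Sorcs1 window held 33 CpG and 76.4% G or C, and the windows of Sorcs2, Sort1 and Sorl1 held 66.0%, 71.6% and 78.4%. Sorcs3 was therefore the member with the fewest CpG and the lowest G or C share. On either strand, GGGCGG (the GC box) was found in the windows of Sorcs3, Sorcs1 and Sort1 and in 30.5% of all windows, and CACGTG (the E-box) in that of Sorl1 and 5.59% of all. TGACGTCA (the cAMP response element), GCGNGGGCG (the EGR motif) and TATAAA were in none of the 5 windows and in 1.59%, 4.29% and 12.9% of all windows, and a GC box may overlap an EGR motif.

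Levels between genes are compared on the authors' TPM, which is per transcript length. The order was the same in all 3 groups, from Sort1, at 209.0 ± 2.28 TPM in K4, 189.7 ± 6.45 in Ketamine and 200.7 ± 39.3 in Control (SD, n = 3 each), down to Sorcs3. Sorl1, the next, averaged 112.8 ± 1.91 TPM in K4, 109.3 ± 3.53 in Ketamine and 97.2 ± 23.0 in Control. Sorcs1 averaged 36.0 ± 0.641 TPM in K4, 34.0 ± 1.82 in Ketamine and 34.4 ± 5.77 in Control. These are the pro-neurotrophin receptor sortilin and SorLA well above the SorCS branch, with Sorl1 at 3.13, 3.21 and 2.83 times Sorcs1 in K4, Ketamine and Control. Sorcs2 averaged 32.6 ± 1.58 TPM in K4, 30.2 ± 2.86 in Ketamine and 30.5 ± 3.27 in Control. Sorcs1 and Sorcs2 were the neighbours in this order whose libraries overlapped, in Ketamine and in Control but not in K4. All other neighbours were apart in every group.

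**Figure D1:**
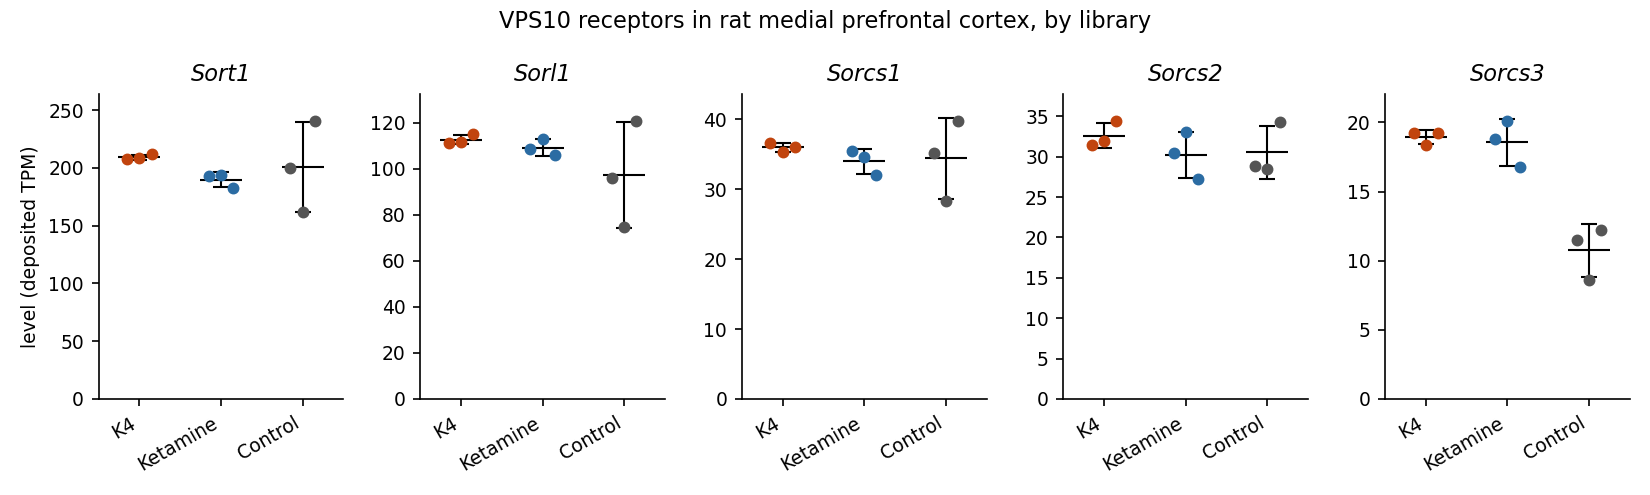
Level of each VPS10 receptor in TPM (vertical axis, from 0) in each library (points), with the mean and SD of 3 libraries (bars), for K4, Ketamine and Control. Sorcs3 is the lowest of the 5 and the member whose Control points, at 8.59 to 12.2 TPM, all lie below the points of both drug groups, at 16.8 to 20.1 TPM.

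Sorcs3, the postsynaptic receptor, was higher after both drugs than in untreated rats. It had 19.2, 18.4 and 19.3 TPM in the K4 libraries, 18.8, 20.1 and 16.8 TPM in the Ketamine libraries, and 11.5, 8.59 and 12.2 TPM in the Control libraries. All 6 drug libraries lay above all 3 Control libraries, and Control replicate 2 was the lowest; over all genes, 13.3% of those tested lay wholly higher in K4 and 16.9% wholly higher in Ketamine. On counts scaled to library size (CPM, with TMM normalisation) it had 52.0, 52.6 and 51.9 in K4, 53.7, 55.9 and 48.4 in Ketamine and 35.0, 30.4 and 34.1 in Control. Both drug groups stood apart from Control on this scale too, and the K4 libraries lay closer together than those of the other groups. In CPM, 13.3% of all genes tested lay wholly higher in K4 than in Control, and 16.9% wholly higher in Ketamine than in Control. The share of genes higher in both drug groups at once, and the shares in TPM, were not computed. The edgeR log2 fold change of K4 over Control was 0.65, or 1.57-fold. For Ketamine over Control it was 0.67, or 1.59-fold. Both comparisons share the 3 Control libraries. Larger log2 fold changes were fitted for 576 of 18047 genes in K4 and 549 in Ketamine, of which 59 and 48 had a mean log2 CPM of at least 2. The number of all tested genes at that level is not given here. Sorcs3 was chosen for these same differences, so the ranks describe their size and are not a test. Raw Sorcs3 counts were between 1171 and 1757 per library, and of the genes overlapping it in GRCr8 the one in the count table had at most 1 count in any library. In bulk tissue, more cells that express a gene and more RNA per cell cannot be told apart.

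The 4 other receptors gave no call against Control. In K4 against Control, 0 of 4 passed edgeR's quasi-likelihood test at a Benjamini-Hochberg adjusted p below 0.05, where 6.07% of all genes tested were called. In Ketamine against Control 0 of 4 passed, where 16.7% were called. DESeq2 called Sort1 alone, in Ketamine against Control, and at an unadjusted edgeR p below 0.05 Sort1 in that comparison was likewise the single member. In the test over all 3 groups together 0 of 4 passed (edgeR adjusted p 0.207 for Sort1 and 0.345 to 0.818 for the rest), where 12.2% of all genes were called.

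Sort1 was the member nearest to the threshold. It had 661, 722 and 667 CPM in K4, 656, 629 and 616 CPM in Ketamine and 708, 668 and 786 CPM in Control. The Ketamine libraries all lay below the Control libraries, while K4 and Control overlapped. Its log2 fold change in Ketamine over Control was −0.19 (95% interval −0.34 to −0.03, unadjusted p 0.0219, edgeR adjusted p 0.0928), and it was 0.02 after a correction for transcript length. DESeq2 gave an adjusted p of 0.0414 and edgeR without Control replicate 2 gave 0.0146, so the call depends on the tool and on that library. In K4 over Control the log2 fold change was −0.08 (95% interval −0.23 to 0.08, edgeR adjusted p 0.559), positive at 0.05 with the length correction and at 0.08 on the TPM scale. On that scale the median of all genes itself moved to 0.16 in K4 and 0.12 in Ketamine over Control, so the 0.08 lies below the typical gene, as do the TPM values of Sorcs1, Sorcs2 and Vps35 given further on.

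Sorcs1, the neighbour of Sorcs3, did not share its pattern. It had 105, 110 and 104 CPM in K4, 105, 107 and 101 CPM in Ketamine and 113, 107 and 118 CPM in Control. The Ketamine libraries lay below the Control libraries by a narrow margin, and K4 and Control overlapped. Sorcs1 and Sort1 were thus the 2 of 4 tested members whose Ketamine and Control libraries did not overlap, where 35.0% of all genes did not (18.1% lying lower in Ketamine). In K4 against Control 0 of 4 were apart, where 27.5% of all genes were (14.2% lying lower in K4). Its log2 fold change was −0.08 in K4 over Control (95% interval −0.21 to 0.04, edgeR adjusted p 0.413), turning to 0.03 with the length correction and 0.08 on the TPM scale. In Ketamine over Control it was −0.12 (95% interval −0.24 to 0.01, edgeR adjusted p 0.191), turning to 0.07 with the length correction. On the other side of Sorcs3 the nearest gene tested was Itprip, which lies 3 genes away, with log2 fold changes of 0.14 in K4 (edgeR adjusted p 0.857) and −0.08 in Ketamine (edgeR adjusted p 0.905).

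Sorcs2, the proBDNF co-receptor, had 84.2, 90.8 and 91.7 CPM in K4, 85.9, 91.0 and 78.1 CPM in Ketamine and 86.8, 99.96 and 94.99 CPM in Control. All 3 groups overlapped. Its log2 fold change was −0.08 in K4 over Control (95% interval −0.23 to 0.08, edgeR adjusted p 0.553), positive at 0.03 with the length correction and 0.10 on the TPM scale. In Ketamine over Control it was −0.14 (95% interval −0.30 to 0.01, edgeR adjusted p 0.192), positive at 0.02 with the length correction.

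Sorl1, the amyloid precursor protein sorter, had 370, 393 and 380 CPM in K4, 380, 386 and 376 CPM in Ketamine and 359, 325 and 414 CPM in Control. Control replicates 2 and 3 were the lowest and the highest of the 9 libraries, so both drug groups lay inside the Control range. The log2 fold change was 0.06 in each drug over Control, with 95% intervals of −0.11 to 0.23 in K4 (edgeR adjusted p 0.702) and −0.11 to 0.22 in Ketamine (edgeR adjusted p 0.66), and its sign turned in fits that left out 1 library (−0.02 to 0.18 in K4, −0.02 to 0.17 in Ketamine). With the length correction its log2 fold changes were 0.20 in K4 (edgeR adjusted p 0.193) and 0.27 in Ketamine (0.0533), with no call. Without that correction the fold intervals for Sorl1 ran from 0.927 to 1.17 in K4 and from 0.926 to 1.17 in Ketamine.

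**Figure D2:**
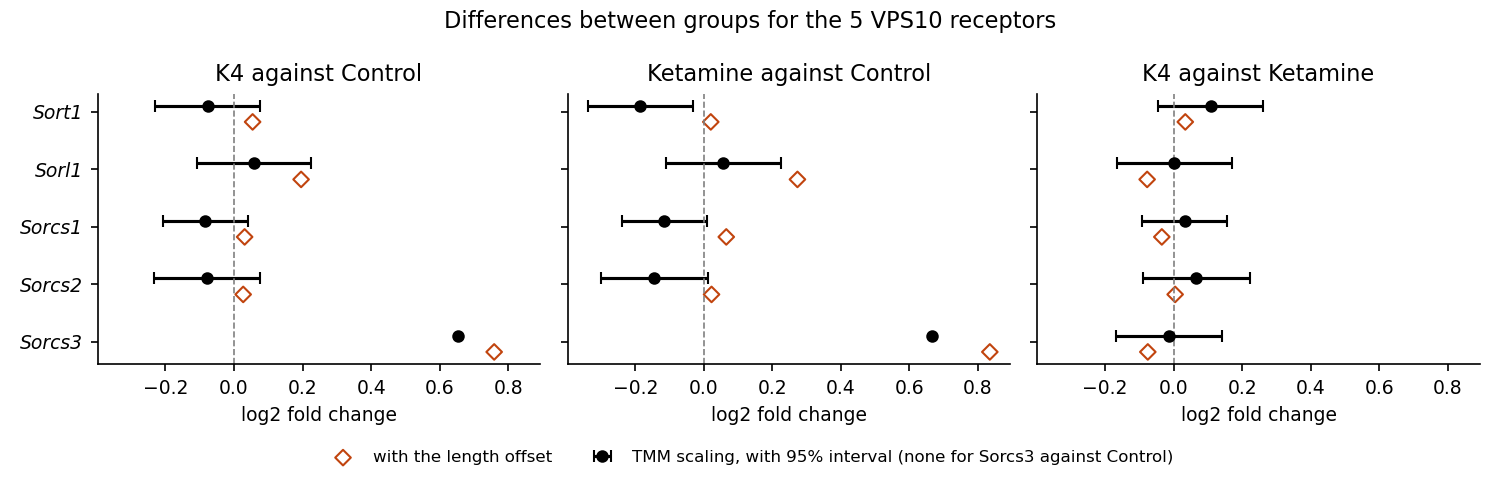
edgeR log2 fold change of each VPS10 receptor (horizontal axis, black points, with 95% intervals except for Sorcs3 against Control; open diamonds, the same with the correction for transcript length) in K4 against Control, Ketamine against Control and K4 against Ketamine. Sorcs3 stands at 0.65 and 0.67 against Control and −0.01 between the drugs; with the length correction the signs of Sorcs1, Sorcs2 and Sort1 against Control turn, as do those of Sorcs1 and Sorl1 between the drugs.

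Between the drugs, no receptor passed the test. In K4 against Ketamine edgeR called 0 of 5 members, where 0.0% of all genes were called (1648 at an unadjusted p below 0.05, and 66 with DESeq2). For Sorcs3 the log2 fold change was −0.01 (95% interval −0.17 to 0.14, edgeR adjusted p 0.971), which in fold terms runs from 0.891 to 1.102, and its sign turned on the TPM scale (0.03). Sort1 was the 1 member of 5 whose K4 and Ketamine libraries did not overlap, where 17.8% of all genes did not (9.49% lying higher and 8.29% lower in K4), with a log2 fold change of 0.11 (95% interval −0.05 to 0.26, edgeR adjusted p 0.691). Sorcs1, Sorcs2 and Sorl1 had log2 fold changes of 0.03, 0.07 and 0.00 (edgeR adjusted p 0.905, 0.826 and 0.997), and those of Sorcs1 and Sorl1 turned negative with the length correction (−0.03 and −0.08). A p that misses the threshold does not show that the drugs act alike, and doses and routes differ or are not stated.

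Within each library, Sorcs3 made up a larger part of the receptor family after either drug. Its share of the summed TPM of the 5 genes was 4.63 ± 0.104% in K4, 4.85 ± 0.247% in Ketamine and 2.89 ± 0.186% in Control (SD, n = 3 each). The summed level itself was 409.3 ± 6.03 TPM in K4, 381.8 ± 15.6 TPM in Ketamine and 373.6 ± 72.7 TPM in Control, with Control widely spread. On log2(TPM + 1) the median of all genes itself moved to 0.16 in K4 and 0.12 in Ketamine over Control. In CPM, Sort1, Sorcs1 and Sorcs2 averaged highest in Control, and Sorl1 and Sorcs3 lowest. The order of the summed levels is therefore not read as a difference between the groups. The ratio of Sorcs3 to its neighbour Sorcs1 was 0.526 ± 0.00688 in K4, 0.545 ± 0.0314 in Ketamine and 0.313 ± 0.0122 in Control. This ratio of TPM values does not depend on library size, and it varied less among Control libraries (0.304 to 0.326) than Sorcs3 itself did. Ratios of Sorcs3 to Sorcs2, Sort1 and Sorl1 were likewise higher in every drug library than in every Control library, and carry the same Sorcs3 values. The ratio of Sort1 to Sorl1, chosen after its values were seen, was 1.84 to 1.86 in K4, 1.71 to 1.78 in Ketamine and 1.99 to 2.17 in Control. The groups did not overlap in this ratio, and neither gene was called. How many gene pairs have ratios that stand apart in this way was not computed, so these ratios are a description only. Sort1 took 51.1 ± 0.242% of the family in K4, 49.7 ± 0.495% in Ketamine and 53.7 ± 0.118% in Control.

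**Figure D3:**
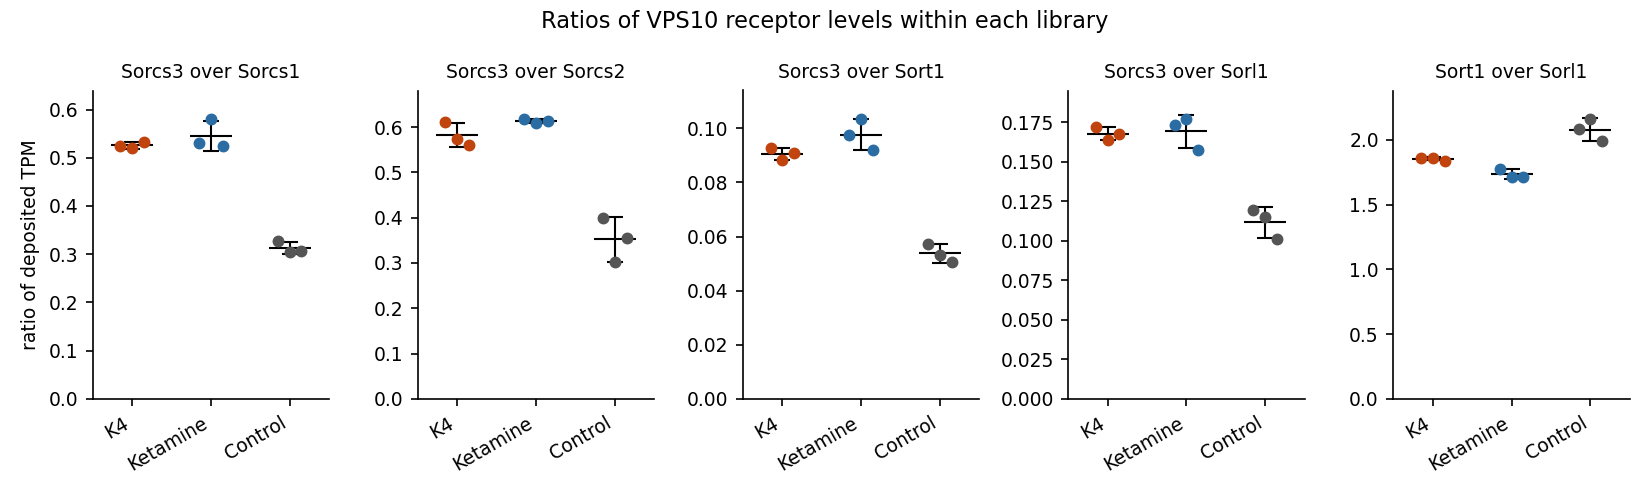
Ratios between receptors in TPM (vertical axes, from 0) in each library (points), with the mean and SD of 3 libraries, for K4, Ketamine and Control. Sorcs3 over Sorcs1 lies between 0.520 and 0.581 in the drug libraries, above 0.304 to 0.326 in Control, and Sort1 over Sorl1 is lower in the drug libraries.

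Genes that work with these receptors were followed in 6 lists of 74 entries. In K4 against Control 2 of 72 tested entries rose and 2 fell, and in Ketamine against Control 7 rose and 10 fell, against backgrounds over all genes of 2.27% higher and 3.8% lower in K4 and 6.95% higher and 9.75% lower in Ketamine. No entry was called in K4 against Ketamine. The median log2 fold change over all genes was 0.00 in both comparisons with Control, to 2 decimals.

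Among 16 adaptors that bind the receptors' tails or sort them, 2 rose and 0 fell after K4 and 6 rose and 0 fell after ketamine, with medians of 0.09 and 0.06. Called adaptors in K4 numbered 4 with DESeq2 and 5 without Control replicate 3, where Ap2m1 (edgeR adjusted p 0.0117) and Ap1s1 (0.0388) were among them. Calls over all genes were also more in these settings, at 1886 of 12587 with DESeq2 and 1528 of 18373 without Control replicate 3. The main fit called 1095 of 18047 in K4. Pick1, the PDZ adaptor that binds SorCS3 and AMPA receptors, averaged 24.5 ± 0.333 CPM in K4, 25.5 ± 0.955 CPM in Ketamine and 19.5 ± 1.62 CPM in Control. It rose by a log2 fold change of 0.33 after K4 (edgeR adjusted p 0.0299) and 0.39 after ketamine (0.00567). Gga1, an adaptor for Golgi-to-endosome transport, averaged 72.8 ± 2.65 CPM in K4, 68.03 ± 2.95 CPM in Ketamine and 59.3 ± 0.444 CPM in Control, a rise of 0.30 (edgeR adjusted p 0.0132) and 0.20 (0.0302). The other 4 called after ketamine are subunits of the clathrin adaptors AP-1 and AP-2, named Ap1s1, Ap2m1, Ap1m1 and Ap2s1, of which the last pair fall outside the naming rule and were chosen after their values were seen. Ap2m1 averaged 718.5 ± 14.9 CPM in Ketamine and 578.5 ± 57.1 CPM in Control (log2 fold change 0.31, edgeR adjusted p 0.0115), and Ap1s1 rose by 0.26 (0.0132). With the length correction the calls of Pick1 after K4 (edgeR adjusted p 0.064) and of Ap2m1 (0.0594) and Ap1s1 (0.177) after ketamine were lost, and those of Pick1 after ketamine and of Gga1 in both comparisons held. The K4 call of Pick1 was lost without any 1 of the 3 K4 libraries (edgeR adjusted p 0.0795 to 0.0994), and that of Gga1 without Control replicate 1, K4 replicate 1 or K4 replicate 2 (0.0516 to 0.0566). After ketamine, leaving out Control replicate 1 or any 1 Ketamine library ended the call of Gga1 (0.0514 to 0.133), Control replicate 1 or Ketamine replicate 2 that of Ap1s1 (0.0539 and 0.0778), and Ketamine replicate 2 that of Ap2m1 (0.0614).

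Among 7 tested signalling co-receptors, 0 rose and 1 fell after K4 and 0 rose and 2 fell after ketamine (medians −0.12 and −0.09). Ntrk2, which encodes TrkB, the receptor of mature BDNF, averaged 695.0 ± 44.8 CPM in K4, 603.4 ± 41.2 CPM in Ketamine and 978.9 ± 189 CPM in Control. It fell by 0.49 on the log2 scale after K4 (edgeR adjusted p 0.0296) and by 0.70 after ketamine (0.00241). Without Control replicate 1 or any 1 K4 library the K4 call was lost (edgeR adjusted p 0.0632 to 0.107), as it was with the length correction (0.0919). Trio, a guanine exchange factor that SorCS2 binds in mouse neurons, averaged 149.1 ± 6.08 CPM in Ketamine and 188.5 ± 10.4 CPM in Control and fell by 0.34 (edgeR adjusted p 0.00333), but by 0.03 with the length correction (0.848). Ngfr, the p75 receptor itself, was near the floor at 0.877 ± 0.0984 CPM in K4, 1.20 ± 0.392 CPM in Ketamine and 1.20 ± 0.0106 CPM in Control, and was not called (edgeR adjusted p 0.366 and 0.99).

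Among 12 synaptic and membrane cargo genes, edgeR called 0 after K4, and 0 rose and 2 fell after ketamine, with medians of −0.13 and −0.15. Leaving out Control replicate 2 raised these counts to 4 called after K4 and 6 after ketamine. Over all genes that fit called 1548 of 18391 in K4 and 3058 of 18391 in Ketamine, against 1095 and 3013 of 18047 in the main fit. Lrp1, a large endocytic receptor, averaged 656.1 ± 31.0 CPM in K4, 571.8 ± 43.9 CPM in Ketamine and 785.5 ± 64.3 CPM in Control. Its log2 fold change of −0.26 after K4 was not called (edgeR adjusted p 0.0646), though DESeq2 called it (0.00868). It fell by 0.46 after ketamine (edgeR adjusted p 0.00236) and Insr, the insulin receptor, by 0.34 (0.0264), and both calls were lost with the length correction (0.468 and 0.21). That of Insr was also lost without Control replicate 1 or 3 or Ketamine replicate 2 or 3 (0.0697 to 0.12).

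Of 10 ligands tested, 0 were called after K4 and 1 fell after ketamine, with medians of 0.11 and 0.14. The 1 was Lpl, lipoprotein lipase, a ligand of sortilin and SorLA, which averaged 7.71 ± 0.541 CPM in Ketamine and 10.5 ± 0.697 CPM in Control (log2 fold change −0.44, edgeR adjusted p 0.0159; 0.0546 and 0.076 without Control replicate 3 and Ketamine replicate 2). Bdnf, whose precursor binds sortilin and SorCS2, averaged 33.7 ± 3.11 CPM in K4, 32.0 ± 3.49 CPM in Ketamine and 26.2 ± 5.22 CPM in Control. Its log2 fold changes of 0.37 and 0.29 were not called (edgeR adjusted p 0.125 and 0.164), but were without Control replicate 3 (0.0279 and 0.0332). Grn, which encodes progranulin, had log2 fold changes of 0.12 in both comparisons (edgeR adjusted p 0.587 and 0.504), and its K4 value turned to −0.04 in one of the fits that left out 1 library.

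Of 13 retromer and sorting nexin genes, 0 were called after K4 and 2 fell after ketamine (medians −0.05 and −0.02). Vps35, the core retromer subunit, had log2 fold changes of −0.09 and −0.10 (edgeR adjusted p 0.372 and 0.265), both positive on the TPM scale (0.09 and 0.03). Tbc1d5, a GTPase-activating protein that binds retromer, averaged 45.6 ± 1.52 CPM in Ketamine and 55.8 ± 2.02 CPM in Control and fell by 0.29 (edgeR adjusted p 0.00492). Snx27, which links retromer to PDZ-binding cargo, fell by 0.27 after ketamine (0.0432), a call held in 2 of the 9 fits that left out 1 library, those without Control replicate 3 or K4 replicate 2. Both calls were lost with the length correction (0.322 and 0.536).

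Of 14 proteases and sheddases, 0 rose and 1 fell after K4, and 1 rose and 3 fell after ketamine (medians 0.06 and −0.02). Adam10, a sheddase of several of these receptors, averaged 68.2 ± 1.13 CPM in K4, 61.2 ± 1.97 CPM in Ketamine and 79.7 ± 5.47 CPM in Control. It fell by 0.23 after K4 (edgeR adjusted p 0.0483) and by 0.38 after ketamine (0.00193). The K4 call held in 1 of 9 fits that left out 1 library, the one without Control replicate 3, and not with the length correction (0.111), while the ketamine call held in all 9 and with the length correction (0.00759). Adam17, a second sheddase, and Pcsk6, a proprotein convertase, fell by 0.49 (edgeR adjusted p 0.0375) and 0.53 (0.0117) after ketamine, and Psenen, a gamma-secretase subunit, rose by 0.23 (0.0427). The length correction ended the calls of Adam17 (0.11) and Psenen (0.987), and so did leaving out K4 replicate 1, Control replicate 1 or any 1 Ketamine library for both, Control replicate 2 for Adam17 and Control replicate 3 for Psenen (0.0531 to 0.178). Pcsk6 was not called without Ketamine replicate 2 (0.0593).
Over the 9 fits that each left out 1 library, the calls per list after K4 ran from 0 to 5 for adaptors, 0 to 4 for cargo, 0 to 2 for ligands and 0 to 1 for each of the others. After ketamine they ran from 1 to 6 for adaptors and for cargo, 1 to 4 for proteases, 1 to 2 for retromer genes and 0 to 2 for ligands, and were 2 for co-receptors in every fit. The most calls came without Control replicate 3 for adaptors and ligands in K4 and without Control replicate 2 for cargo in both comparisons. Over all genes the same 9 fits called 174 to 1548 in K4 and 1177 to 3191 in Ketamine. On log2(TPM + 1) with a mean TPM of at least 1, the K4 calls of Ntrk2 and Adam10 were lost (limma adjusted p 0.0834 and 0.718) while those of Pick1 and Gga1 held. On the same scale the ketamine calls of Lpl, Trio, Insr, Tbc1d5, Snx27, Adam10, Pcsk6 and Adam17 were lost (0.0761 to 0.496), and those of Ntrk2, Lrp1, Psenen and the 4 named adaptors held. The median of all genes on this scale was 0.16 in K4 and 0.12 in Ketamine over Control. Calls there were 943 higher and 75 lower in K4, and 1419 higher and 421 lower in Ketamine. Falls lost and rises held on this scale are therefore relative to that upward shift. With the 6 libraries of the pair alone, the K4 calls of Ntrk2, Pick1 and Adam10 (edgeR adjusted p 0.0675 to 0.0985) and the ketamine calls of Snx27, Gga1, Adam17 and Psenen (0.0618 to 0.0655) were lost.

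**Figure D4:**
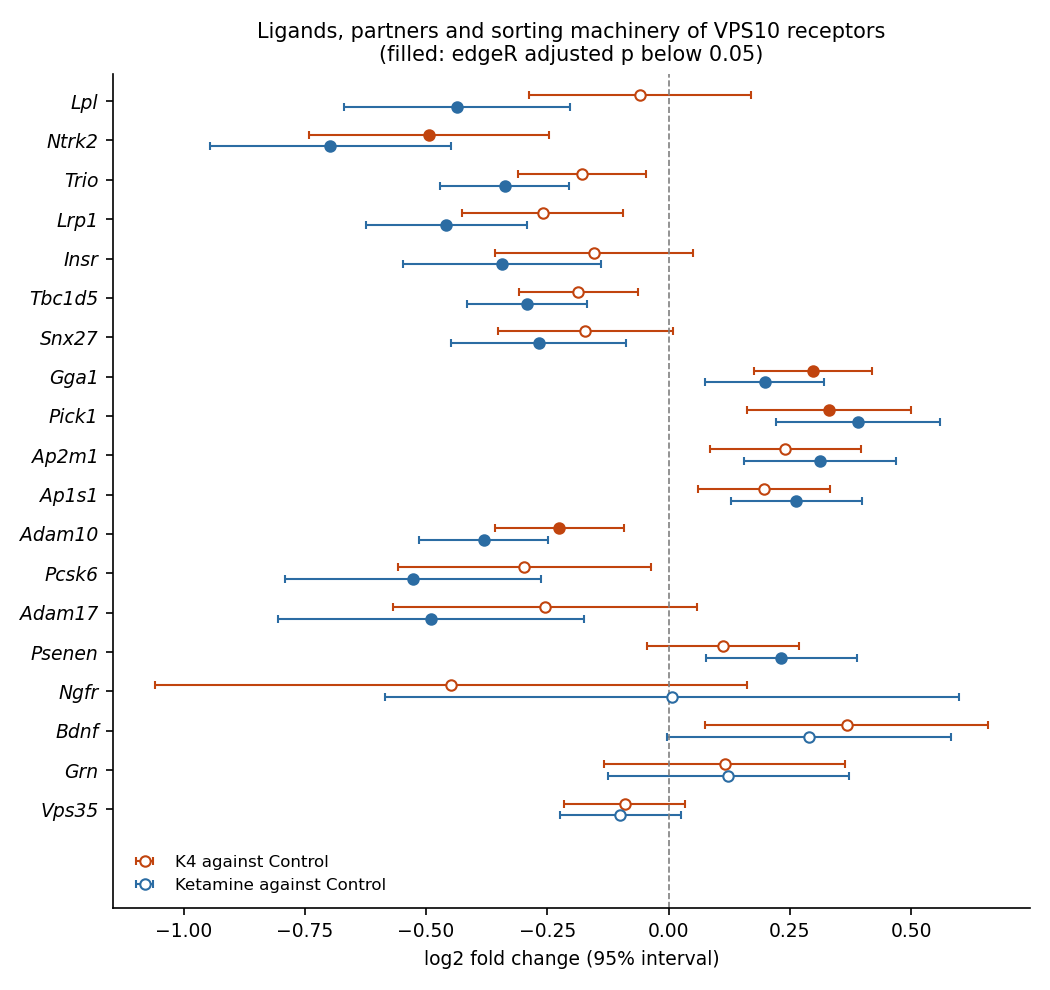
edgeR log2 fold change (horizontal axis) with 95% interval of the named ligands, partners, sorting genes and proteases in K4 and Ketamine against Control, with filled points at an adjusted p below 0.05. The 4 adaptors named lie to the right of 0 in both comparisons, and Ntrk2, at −0.49 and −0.70, is the gene farthest to the left. Trio, Insr, Tbc1d5, Snx27, Lpl and Vps35 turn sign in K4 on the TPM scale, as does Vps35 in Ketamine. On that scale the median of all genes itself moved to 0.16 in K4 and 0.12 in Ketamine. Psenen turns sign in K4 with the length correction.

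Over the 9 libraries, the genes whose log2 CPM followed Sorcs3 most closely among 11365 genes were Arntl, a circadian clock transcription factor (Pearson r 0.98), Hist3h2ba (0.98), Ubald1 (0.98), Scamp3 (0.98) and Bsg (0.97). Those most opposed were Gpd2, Pik3c2a and Tnpo1 (each −0.98). All points share libraries, depth and the group difference, and these genes were picked for the most extreme r of many, so the values are descriptions. Between libraries of the same group the deviations correlated less, at 0.53 to 0.82 for the first 5 and −0.73 to −0.64 for the last 3. Arntl averaged 35.8 CPM in K4, 36.5 CPM in Ketamine and 29.1 CPM in Control, and Pik3c2a, a class II phosphoinositide 3-kinase, 43.4 CPM in K4, 43.8 CPM in Ketamine and 64.9 CPM in Control. On the TPM scale the correlations of Tnpo1 and Gpd2 with Sorcs3 were weaker (−0.52 and −0.69). The other receptors gave r of −0.57 (Sorcs1), −0.51 (Sorcs2 and Sort1) and 0.44 (Sorl1) with Sorcs3 over all libraries, and 0.76, 0.10, 0.54 and 0.56 as deviations from group means. Sorcs1 was thus the member with the lowest r over all libraries and the highest within groups.

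**Figure D5:**
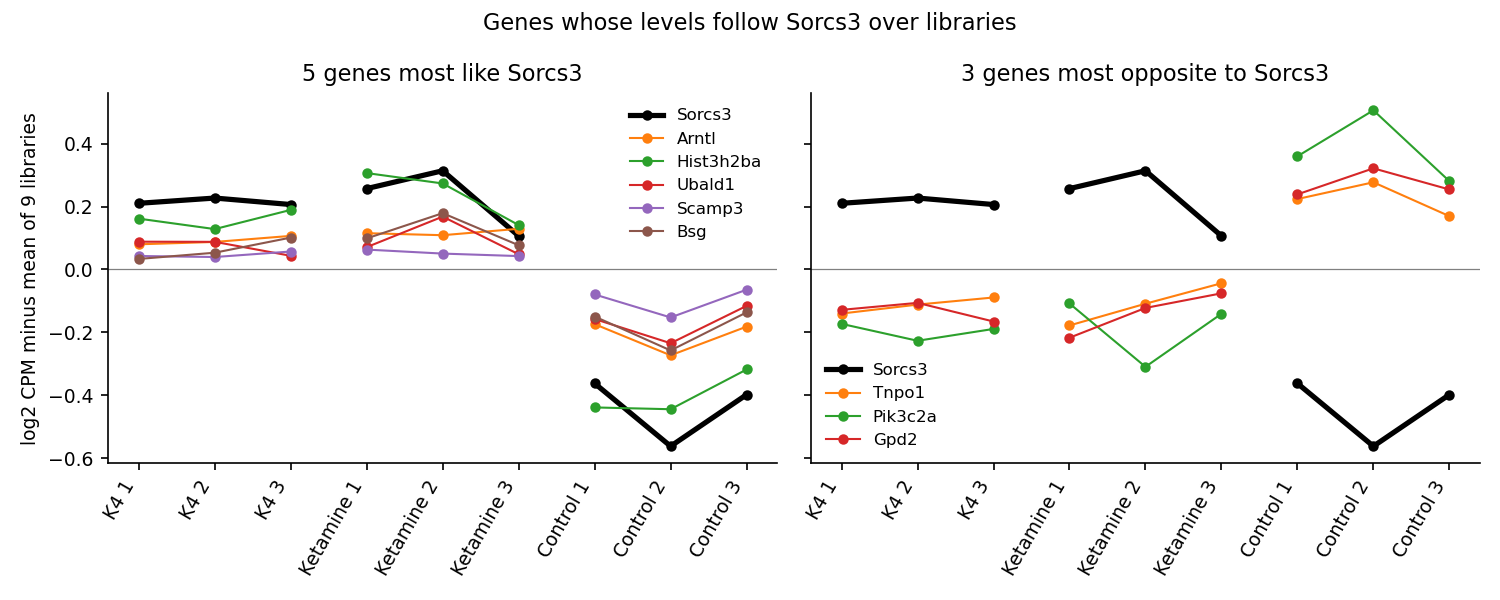
Log2 CPM minus the gene's mean over 9 libraries (vertical axis) for Sorcs3 (thick black) and the genes with the highest and lowest correlation with it, by library within K4, Ketamine and Control (lines join libraries of 1 group and carry no order). Sorcs3 and the similar genes are lower in the Control libraries, and Gpd2, Pik3c2a and Tnpo1 are higher there.

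Several measures of the libraries move with the groups. Library totals ran from 28495399 to 32735785 counts in K4, 27122207 to 33837450 in Ketamine and 40863756 to 42731004 in Control. The 13 mitochondrial protein genes took 10.4 to 11.4% of counts in K4, 10.6 to 11.8% in Ketamine and 11.6 to 19.0% in Control, the highest being Control replicate 2, which among the Control libraries had the lowest TPM of each of the 5 receptors. Longer transcripts had relatively more counts in Control than in drug libraries (slopes on log2 length of log2 CPM, taken as the deviation from each gene’s mean, of −0.02 to 0.00 in K4, −0.07 to −0.02 in Ketamine and 0.04 to 0.07 in Control); allowing for this gave Sorcs3 log2 fold changes of 0.76 in K4 and 0.83 in Ketamine. Of 1095 genes called in K4 against Control 409 were higher and 686 lower, against 527 and 563 with upper quartile scaling and 943 and 75 on the TPM scale. Of 3013 called in Ketamine against Control 1254 were higher and 1759 lower, against 1587 and 1549 with upper quartile scaling and 1419 and 421 on the TPM scale.

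Slc17a7, the defining transporter of cortical excitatory neurons, stood at 979.6 to 1003 TPM in K4, 892.5 to 1011 TPM in Ketamine and 605.7 to 964.0 TPM in Control. In CPM both drug groups overlapped Control, with log2 fold changes of 0.18 in K4 and 0.15 in Ketamine (edgeR adjusted p 0.191 and 0.225). All TPM ranges of markers carry the shift of that scale, where the median of all genes moved to 0.16 in K4 and 0.12 in Ketamine over Control. Summed over 5 such markers the level was 2408 to 2547 TPM in K4, 2119 to 2283 TPM in Ketamine and 2287 to 2519 TPM in Control, with 0 of 5 called in K4 and 2 of 5 lower in Ketamine. Astrocyte markers summed to 1647 to 1793 TPM in K4, 1372 to 1480 TPM in Ketamine and 2016 to 2500 TPM in Control, and 2 of 7 fell after K4 and 6 of 7 after ketamine. Endothelial and mural markers summed to 195.7 to 231.5 TPM in K4, 142.3 to 173.8 TPM in Ketamine and 231.4 to 272.6 TPM in Control, with 3 of 6 lower after each drug. Striatal markers, from a neighbouring region, summed to 138.3 to 150.1 TPM in K4, 126.9 to 138.7 TPM in Ketamine and 102.6 to 122.6 TPM in Control, and 2 of 6 rose after K4 and 1 of 6 after ketamine. Oligodendrocyte precursor markers summed to 104.8 to 122.6 TPM in K4, 86.2 to 100.9 TPM in Ketamine and 107.0 to 132.9 TPM in Control, with 1 of 5 lower after K4 and 4 of 5 after ketamine. Of 5 upper layer markers 2 fell after K4, and 3 fell and 1 rose after ketamine. Cux2 stood at −0.46 and −0.42 and Rorb at −0.44 and −0.43 on the log2 scale. Lamp5 went the other way, at 0.13 in K4 (edgeR adjusted p 0.379) and 0.38 in Ketamine (0.00832). Calb1 was not called, at −0.15 in K4 and 0.06 in Ketamine. Of 5 deep layer markers 1 was called, Syt6, which rose by 0.95 after K4 (edgeR adjusted p 0.0294) and fell by 0.84 after ketamine (0.0315). Of 6 microglial markers 1 fell after K4 and 3 after ketamine, and of 6 inhibitory neuron markers 1 rose and 1 fell after ketamine. Oligodendrocyte markers summed to 1853 to 2363 TPM in K4, 1285 to 1556 TPM in Ketamine and 1221 to 1788 TPM in Control. Of these 6, 1 rose after K4 and 0 were called after ketamine, with medians of 0.26 and −0.22. Meningeal markers summed to 21.65 to 51.35 TPM in K4, 34.31 to 51.38 TPM in Ketamine and 22.49 to 34.75 TPM in Control. Their medians were 0.65 and 0.61, with 0 of 5 called after either drug. The 4 choroid plexus markers summed to 1.69 to 4.97 TPM in K4, 2.24 to 3.66 TPM in Ketamine and 0.897 to 3.35 TPM in Control. Of these Folr1 was at 0 in every library, Ttr reached at most 0.325 TPM, and Kcnj13 averaged 3.51 ± 2.06 CPM in K4, 2.74 ± 0.993 CPM in Ketamine and 1.92 ± 1.16 CPM in Control, with log2 fold changes of 0.86 and 0.52 (edgeR adjusted p 0.409 and 0.594). Over all genes tested, 2.27% were called higher and 3.8% lower in K4, and 6.95% higher and 9.75% lower in Ketamine. The part of these differences in the receptor levels was not tested.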

How the data were processed

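Poly(A)-selected stranded libraries were made from total RNA, per the labels' protocols. The authors deposited raw counts per gene for 9 libraries and, per the file headers, gene FPKM and TPM in a file per library. HISAT2 2.1.0, StringTie 2.1.3b, Trimmomatic and bcl2fastq 2.20.0 were used with build rn6, per the submitters' processing notes; which tool and strand setting made the counts is not given in these sources. Without the strand setting, reads of a gene and an antisense partner cannot be told apart.

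Of 37991 genes, 12287 had no count in any library, and 27 symbols held as dates were restored by gene ID. Names, neighbours and promoters came from RefSeq tables of GRCr8, in which 29216 IDs and all 5 receptors were found; its promoter coordinates are not those of rn6. Implied transcript lengths came from counts and deposited FPKM.

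Counts of all 9 libraries were fitted in 3 groups with edgeR 4.0.16 in R 4.3.3 (TMM, filterByExpr with minimum count 10 and minimum total 15, robust quasi-likelihood), which left 18047 genes; the common biological coefficient of variation was 10.2%. Library totals ran from 27122207 to 42731004. A call needed an adjusted p (Benjamini-Hochberg, over the whole table) below 0.05. The code was tested on simulated data. Alternatives were other scalings and filters, DESeq2 1.42.0, limma 3.58.1 on log2(TPM + 1) and log2(TPM + 0.1) (with a mean TPM of at least 1, or unfiltered), a per-library loess correction for length (span 0.5), the 6 libraries of a pair alone, a replicate block, and leaving out each library.

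The receptors and lists were chosen with earlier results of these data known, and 1 list gene is not reported here. Named list genes are up to 4 genes per list called in either drug against Control, by smallest p, plus Pick1, Ngfr, Ntrk2, Bdnf, Grn and Vps35; the genes most like Sorcs3 are the 5 highest and 3 lowest Pearson correlations of log2 CPM among genes with a proper symbol whose log2 CPM averages 2 or more.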

Additional observations from a re-analysis of the deposited data

How the results depend on the processing

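With 3 libraries per group, only differences well above the spread between libraries could be called. Sorcs3 stayed higher after both drugs in all 20 alternatives run for each comparison (log2 fold changes of 0.59 to 0.83 in K4 and 0.61 to 0.83 in Ketamine). It was chosen for being higher, and all alternatives reuse the same 9 libraries, so this describes the processing only. Sort1 was called in 2 of 20 alternatives in Ketamine against Control. In K4 against Control it was called in 0 of 20, as was each of Sorcs1, Sorcs2 and Sorl1 in either comparison. Over all genes the alternatives called 1 to 1886 in K4 and 537 to 3516 in Ketamine against Control. The cause of the changes below was not tested.

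Log2 fold changes of Sorcs3 over Control were 0.76 in K4 and 0.83 in Ketamine with the length correction, 0.78 in K4 on log2(TPM + 1), filtered or not, and 0.83 and 0.79 on log2(TPM + 0.1), and ran from 0.59 to 0.71 and 0.61 to 0.72 when 1 library was left out. On log2(TPM + 1) the median of all genes moved to 0.16 in K4 and 0.12 in Ketamine, so signs there are relative to that shift. In K4 against Control, Sorcs1 was 0.03 with the length correction, 0.078 on log2(TPM + 1), filtered or not, and 0.080 on log2(TPM + 0.1); Sorcs2 was 0.027, 0.096 and 0.099; Sort1 was 0.054, 0.077 and 0.077. With 1 library left out Sort1 ran from −0.13 to 0.0092 and Sorl1 from −0.022 to 0.18. In Ketamine against Control the length correction gave 0.066 for Sorcs1, 0.023 for Sorcs2 and 0.020 for Sort1; with 1 library left out Sort1 ran from −0.24 to −0.10 and Sorl1 from −0.021 to 0.17. DESeq2 called Sort1 (log2 fold change −0.18, adjusted p 0.0414). The edgeR test of Sort1 over all 3 groups gave adjusted p from 0.0411 to 0.443 with 1 library left out, the lowest without Control replicate 2. In K4 against Ketamine, Sorcs1 was −0.035 with the length correction, Sorcs3 0.032 and 0.033 on the 2 TPM scales and −0.070 to 0.031 with 1 library left out. Sorl1 was −0.0006 with RLE size factors, −0.0049 with upper quartile scaling, −0.0004 with DESeq2, −0.077 with the length correction, −0.0039 with 6 libraries, and −0.022 to 0.022 with 1 library left out. As a share of family CPM in place of TPM, Sorcs3 was 3.98% in K4, 4.19% in Ketamine and 2.51% in Control.

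Genes called in K4 against Control were 1886 with DESeq2, 427 with the length correction, 452 with 6 libraries, 1 on unfiltered log2(TPM + 1) and 174 to 1548 with 1 library left out (fewest without Control replicate 1). In Ketamine against Control they were 1381 with the length correction, 1840, 1837 and 537 on log2(TPM + 1), log2(TPM + 0.1) and unfiltered log2(TPM + 1), and 1177 to 3191 with 1 library left out (fewest without Ketamine replicate 2). In K4 against Ketamine they were 66 with DESeq2, 6 unfiltered, 27 with 6 libraries, 2, 2 and 1 on the TPM scales, and 0 to 27 with 1 library left out. The replicate block gave 1168, 3191 and 1 calls. Same-numbered libraries deviated together weakly, with a positive r in every pair (0.002 to 0.106). Most pairs with different numbers had a negative r, from −0.157 for Control replicate 1 with K4 replicate 2 to 0.069 for Control replicate 1 with K4 replicate 3. Control replicate 3 correlated more with K4 replicate 2 (0.05) than with its own number. The labels do not say what the numbers mark, so the main fit did not pair them, and a weak shared factor was not tested. The block ended the K4 call of Adam10 (edgeR adjusted p 0.0603), as did upper quartile scaling (0.0671) and no filter on low counts (0.0639). After ketamine, upper quartile scaling ended the call of Snx27 (0.0528) and no filter that of Psenen (0.0517).

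Among named genes in K4 against Control, the 2 TPM pseudocounts gave 0.10 and 0.12 for Lpl, 0.038 and 0.040 for Trio, 0.012 and 0.013 for Insr, 0.016 and 0.018 for Tbc1d5, 0.011 and 0.011 for Snx27 and 0.087 and 0.087 for Vps35, the length correction gave 0.022 for Trio and −0.035 for Psenen, and with 1 library left out Lpl ran from −0.10 to 0.015 and Grn from −0.039 to 0.20. In Ketamine against Control Vps35 was 0.033 and 0.034 on the TPM scales, and Ngfr was −0.024 with the block and −0.30 to 0.14 with 1 library left out.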
